A study of Mus musculus with 30 samples.

Results

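The cytosolic ribosomal protein genes were followed across mouse embryonic fibroblasts (MEFs) under stress. They were chosen by name alone: every gene on a non-control spot whose symbol joins Rpl or Rps to a number, the stalk symbols included and the Rps6k kinases left out. The rule used no measured value. It took 79 of the 21689 named genes on the arrays. By name alone 48 of them were assigned to the large subunit or its stalk and 31 to the small subunit. They were read by 130 of 41174 probes, 41 of the genes by 1 probe, 27 by 2, 9 by 3 and 2 by 4. Subunit genes that the array lists under other symbols (Arbp, Fau and Lamr1 among them) fell outside the rule, and these are described at the end.

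The study asked how stress-activated p38 kinase shapes transcription. Wild type (WT) MEFs and MEFs with a p38α knock out (KO), both immortalised lines, were compared on 30 2-colour arrays, 2 for each of 15 groups. WT cells received anisomycin, an inhibitor of protein synthesis, at 25 ng/ml for 45 min, the cytokine TNF alpha at 100 ng/ml for 45 min, or 100 mM NaCl for 45 min, 2 h or 8 h. Each of these was also given after SB203580, an inhibitor of p38α and p38β kinases, and a further WT group received SB203580 alone. The study's methods give SB203580 as 10 µM for 30 min before the stress, whereas the titles of all 6 groups given SB203580 state 10 mM and 2 h. KO cells were untreated or received anisomycin or TNF alpha for 45 min or NaCl for 2 h, at the same doses. On every array the sample carried the red dye Cy5 and a pool from 2 untreated WT samples carried the green dye Cy3, without a dye swap. The pool was therefore the only untreated WT control. Values are log2 ratios of sample to pool, so 0 is the level of the pool and 1 is a 2-fold higher signal. A dye difference of a gene, or any trait of the pool, is present in every such ratio and cannot be told apart from the treatment, whereas it cancels in a comparison of groups.

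Each ribosome holds a small subunit that reads the mRNA and a large subunit that joins amino acids. Most ribosomal proteins are needed in equal numbers, the acidic stalk proteins in more, and their mRNAs are among the most abundant of a growing fibroblast. Many of these mRNAs start with a stretch of pyrimidines, the terminal oligopyrimidine motif, through which growth signals set how strongly they are translated.

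The starts of the genes with the most extreme ratios are shown because this motif lies there. RefSeq start windows (build GRCm38.p6) were held for 58 of the 79 genes. Each line gives 30 bases in the direction of transcription, 15 before the annotated start and 15 from it on, with runs of at least 7 C or T in capitals. The first 4 genes had the highest ratios after 2 h of NaCl among the genes with a window, and the last 4 the lowest.
Rpl39 (chrX:37085208-37085237, minus strand): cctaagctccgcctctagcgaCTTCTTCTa
Rps25 (chr9:44407699-44407728, plus strand): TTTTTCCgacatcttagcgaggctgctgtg
Rpl38 (chr11:114668565-114668594, plus strand): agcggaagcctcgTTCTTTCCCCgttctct
Rps26 (chr10:128626492-128626521, minus strand): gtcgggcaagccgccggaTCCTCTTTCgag
Rpl7l1 (chr17:46782642-46782671, minus strand): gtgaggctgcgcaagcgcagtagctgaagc
Rplp0 (chr5:115559452-115559481, plus strand): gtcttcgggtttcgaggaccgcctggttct
Rps9 (chr7:3704026-3704055, plus strand): accgccttgTCTCTCTTTgtctcgggcctg
Rpl4 (chr9:64173372-64173401, plus strand): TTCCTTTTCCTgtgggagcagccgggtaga

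Such a run was in 31 of 69 windows of ribosomal protein genes (44.9%) and in 18.6% of 32851 windows of all genes. In the 300 bases around the start, on either strand, CCGGAAG was in 33.3% of the windows of ribosomal protein genes and in 8.86% of all, AAGATGGC in 11.6% and 2.75%, and TATAAA in 8.70% and 13.6%. The run did not single out the genes with high ratios. After 2 h of NaCl the median log2 ratio, with outlier spots kept, was 0.43 for the 31 genes with a run, 0.58 for the 27 without one and 0.65 for the 21 without a window. A match of letters is a description and not a binding site.

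The arrays measured these genes brightly. Their median Cy5 signal per array lay between 39130 and 87715, against 832 to 1870 over all probes, and 66 of the 79 were among the brightest 10% of all genes. At most 1 spot per array was saturated, whereas 2 to 55 of the 130 spots per array (median 21) carried an outlier mark and were left out, as were 6.78 to 44.8% of all spots. For this reason 56 to 70 of the 79 genes could be tested in a comparison with the pool. Mapk14, which encodes p38α, was at 0.05 to 1.31 in WT cells and at -2.24 to -0.94 in KO cells, so the ranges did not overlap. All 14 fibroblast markers on the array were above background on all 30 arrays, but so were 3 of 3 epithelial, 6 of 6 leukocyte, 3 of 4 endothelial, 4 of 4 muscle and 3 of 4 neural markers, and detection did not separate cell types. Ribosomal protein genes have near-identical copies elsewhere in genomes, and whether a probe also binds such copies was not tested.

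The ribosomal protein genes stood above the pool on nearly every array. The median of the 79 genes was above 0 on 29 of 30 arrays and ranged from -0.06 to 0.73 (median 0.28), whereas the median of all genes was between -0.01 and 0.00. Other bright genes lay lower. The 2103 other genes of the brightest 10% had medians from -0.14 to 0.13 and lay below the ribosomal protein genes on 29 arrays, and the 393 other genes of the brightest 2%, which holds 41 of the 79, had medians from -0.28 to 0.39 and lay below them on 27. Among the WT groups, anisomycin gave the lowest medians (0.07 on replicate 1 and 0.03 on replicate 2) and NaCl for 2 h high ones (0.61 and 0.48). The arrays of TNF alpha were close to each other at 0.27 and 0.25. Replicates differed far more with SB203580 alone (0.73 on replicate 1 and 0.11 on replicate 2) and with NaCl for 8 h (0.18 and 0.57), so these levels were not well fixed. The median was higher after 2 h of NaCl than after 8 h on replicate 1, but lower on replicate 2. Untreated KO cells had medians of 0.32 and 0.16.

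**Figure D1:**
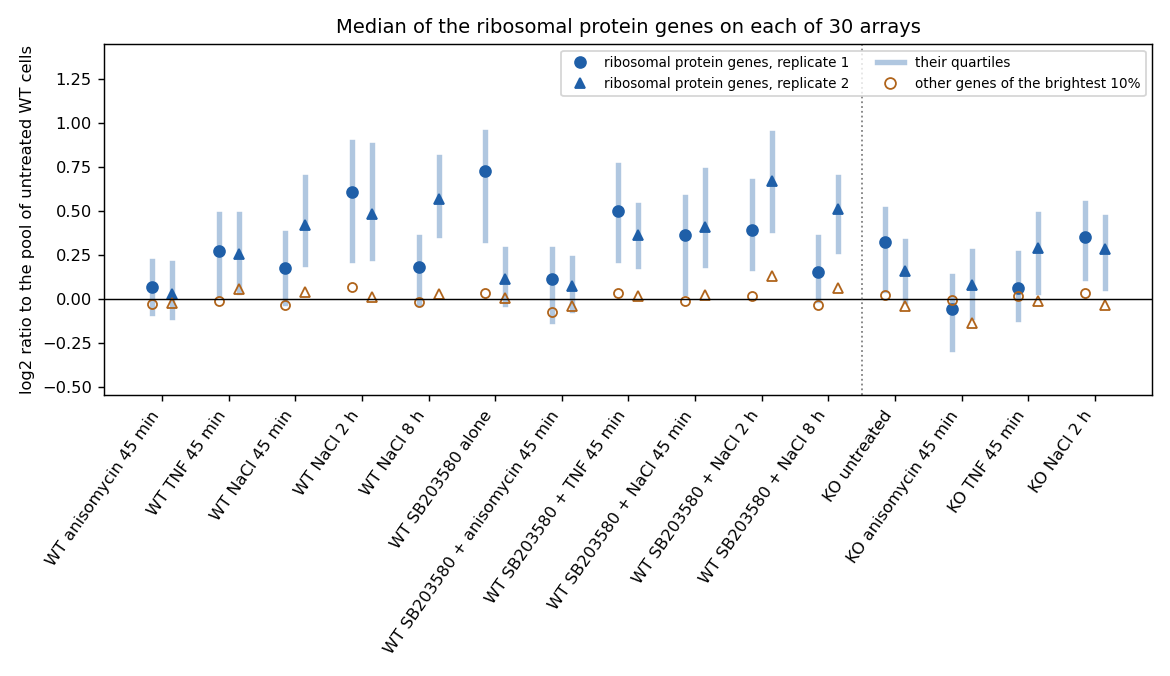
Median log2 ratio to the pool of the ribosomal protein genes on each of the 30 arrays (filled circles for replicate 1, filled triangles for replicate 2, bars for the quartiles over genes) and of the other genes in the brightest 10% (open symbols), by group. The filled symbols lie above 0 on 29 of 30 arrays, with the anisomycin groups nearest to 0.

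Both subunits behaved alike. The median of the large subunit genes exceeded that of the small subunit genes on 19 of 30 arrays, and the difference between them lay between -0.14 and 0.14.

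The genes kept a similar order from array to array. Ranks were taken with outlier spots kept, so that all 79 genes had a value on every array. Rpl39, a small protein lining the exit tunnel of the large subunit, had the highest ratio of all 79 genes on 25 arrays, and Rpl38, which is known for its part in translating Hox mRNAs, on 4. Rpl39, Rpl38 and Rps29 were among the 10 highest on all 30 arrays. At the other end, Rpl4, which also lines the exit tunnel, and Rps9 were among the 10 lowest on all 30, Rpl3 on 29 and Rpl8 and Rplp0 on 28. Since every array shares the pool, this order describes sample and pool together.

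**Figure D2:**
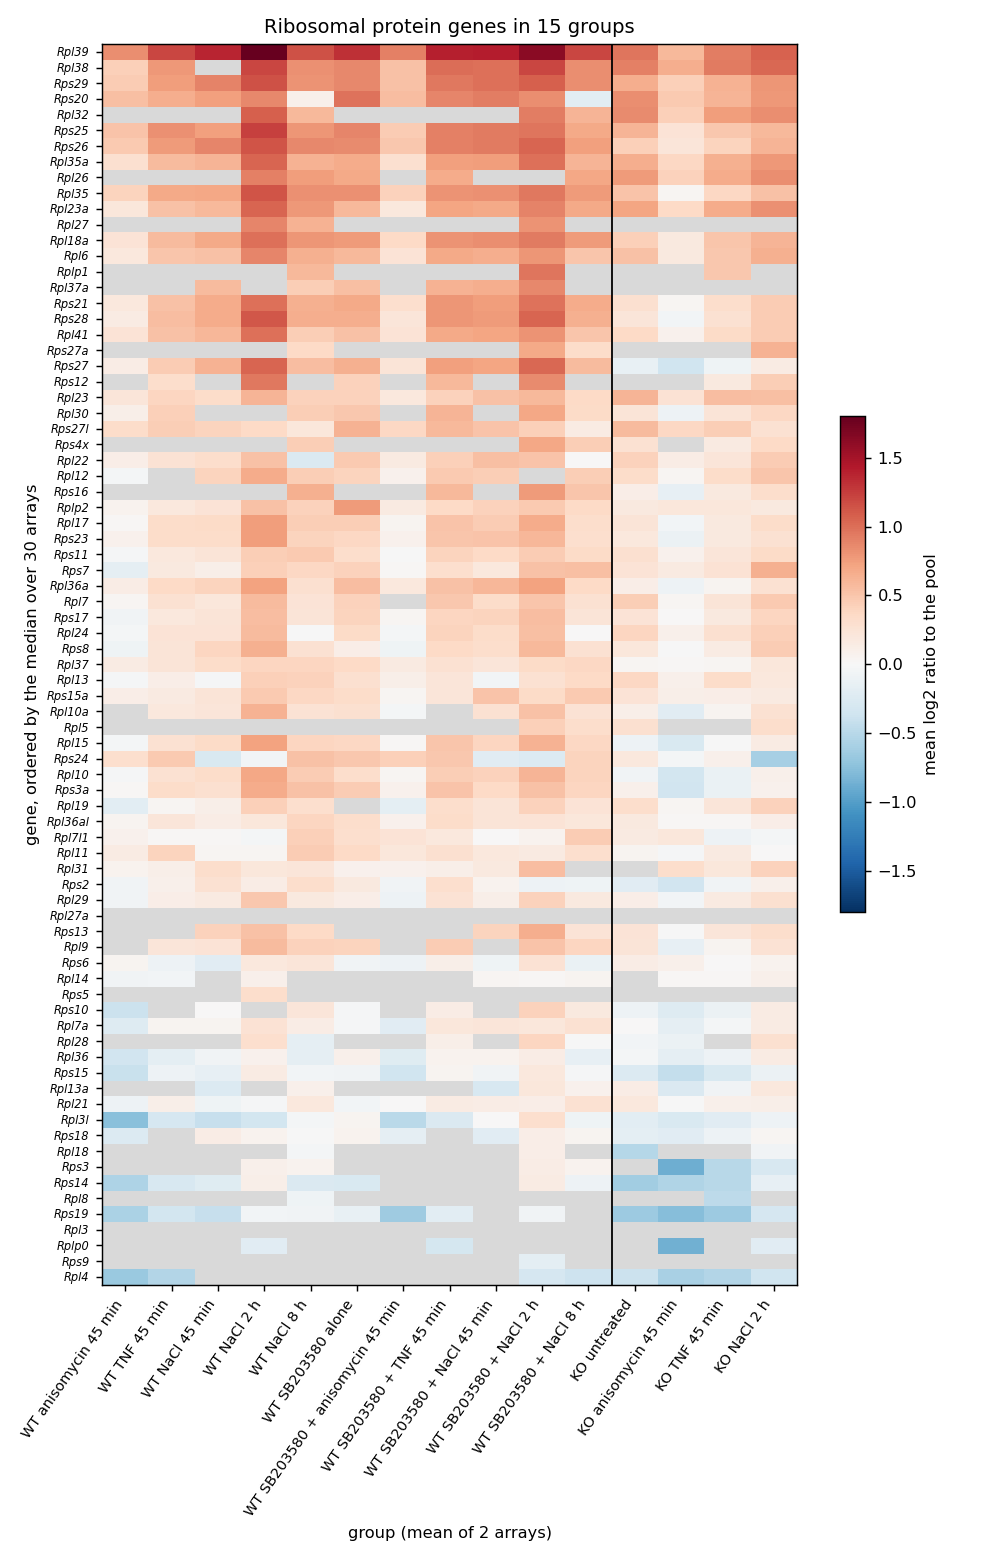
Mean log2 ratio to the pool of the 79 ribosomal protein genes (rows, ordered by their median over 30 arrays) in 15 groups (columns, 2 arrays each). Red is above the pool, blue below, and grey marks a gene that lacked a usable spot on either array. Rpl39 is at the top in most columns and reaches 1.80 with NaCl for 2 h, and Rpl4 is at the bottom.

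Hyperosmotic stress was followed over time. After 45 min of NaCl, 14 of 57 genes measured on both arrays were higher than the pool and 0 were lower (limma, adjusted p under 0.05; 1 gene lower and 26 higher at an unadjusted p under 0.05), with a median of 0.28. Over all genes 4.69% were higher and 5.19% lower. The count was 7 without replicate 1 and 5 without replicate 2. Rpl39 was at 1.09 and 1.66 (mean 1.37 ± 0.17 (SE), adjusted p = 0.000215). Rps29, a small zinc-binding protein of the small subunit, was at 0.69 and 1.11 (mean 0.90, adjusted p = 0.000603). Rps26, which lies at the mRNA exit channel, was at 0.71 and 1.05 (mean 0.88, adjusted p = 0.000627). Rps25, which is needed by some internal ribosome entry sites, was at 0.57 and 0.92 (mean 0.75, adjusted p = 0.0106). All 4 lay above the pool on both arrays and were higher on replicate 2.

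After 2 h of NaCl more genes were called than at 45 min or 8 h. Of 64 genes measured, 39 were higher than the pool and 0 were lower (0 also at an unadjusted p under 0.05), with a median of 0.56, against 5.24% higher and 4.69% lower among the 18504 genes tested. The higher genes were 24 of 38 of the large and 15 of 26 of the small subunit. Rpl39 was at 1.76 and 1.85 (mean 1.80 ± 0.17 (SE), adjusted p = 3.48e-06). Rps25 was at 1.34 and 1.12 (mean 1.23, adjusted p = 0.000195), Rpl38 at 1.22 and 1.19 (mean 1.21, adjusted p = 2.02e-05) and Rps29 at 1.17 and 1.13 (mean 1.15, adjusted p = 3.17e-05). For Rpl39, Rps25 and Rps29 the arrays were closer together than at 45 min, and Rpl38 had 1 usable array at 45 min. Without replicate 1 the count was 14 and without replicate 2 it was 24, and 11 genes reached a 2-fold mean.

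After 8 h, 28 of 70 genes were higher and 0 were lower (0 also unadjusted), with a median of 0.40. More genes of all kinds had moved by then, 11.0% higher and 11.2% lower. Rpl39 was at 0.85 and 1.43 (mean 1.14, adjusted p = 9.43e-05). Rps26 had a mean of 0.86 (adjusted p = 0.000111). Rpl38 was at 0.67 and 0.99 (mean 0.83, adjusted p = 0.000175), and Rpl35, at the exit of the tunnel, at 0.49 and 1.16 (mean 0.82, adjusted p = 0.00135). Replicate 2 was the higher array for each of them. The count was 29 without replicate 1 but 6 without replicate 2.

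The 2 late time points were also compared with each other, which removes the pool. From 2 h to 8 h 3 of 60 genes fell and 0 rose (limma; 2 higher and 10 lower unadjusted), with a median difference of -0.24 and 49 of 60 below 0, against 7.81% of all genes called in either direction. Rpl22, an RNA-binding protein of the large subunit, went from 0.61 and 0.45 to -0.47 and -0.04 (difference -0.78 ± 0.20 (SE), adjusted p = 0.0209). Rps20, at the head of the small subunit, went from 0.94 and 0.79 to 0.00 and 0.18 (difference -0.77 ± 0.22, adjusted p = 0.0379). Rpl24, which forms a bridge between the subunits, went from 0.54 and 0.61 to -0.19 and 0.18 (difference -0.58 ± 0.17, adjusted p = 0.0483). The arrays of the 2 time points did not overlap for any of the 3 genes, which were picked by the test on these same arrays. All first WT arrays were scanned on 1 date and all second ones on another. Within these scans the median difference of the ribosomal protein genes was -0.49 on the first arrays but -0.03 on the second. Over all genes it was -0.001 and 0.001. Genes share their arrays and are not replicates, so a count of genes on 1 side of 0 only describes the set. With replicate numbers as a block 5 genes were called, Rpl28 (-0.47) and Rps24 (0.57, adjusted p = 0.0239) besides these 3. Without replicate 2 of the 8 h group Rpl22 and Rpl24 were called, and without any other of these 4 arrays none was. Leaving out an array of another group, which alters the common spread, left Rpl22 and Rps20 called in every case and Rpl24 in some.

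Anisomycin and TNF alpha gave smaller counts at 45 min. With anisomycin 5 of 56 genes were higher and 3 were lower, against 5.72% and 6.28% of all genes, with a median of 0.05 (-0.01 with outlier spots kept). Of the measured genes 8.93% were thus higher. In both directions together 8 genes were called, whereas 21 were with outlier spots kept, 14 with normexp and loess and 26 with the series matrix. The share of all genes called in these other settings is not given. Rpl39 was at 0.78 and 0.89 (mean 0.84 ± 0.17 (SE), adjusted p = 0.00424), and Rps20 (0.54), Rps26 (0.48), Rps29 (0.46) and Rpl38 (0.43) were the other higher genes. Rpl4 was at -0.71 and -0.64 (mean -0.68 ± 0.08, adjusted p = 0.000698). Rps19, in which mutations cause Diamond-Blackfan anaemia, was at -0.70 and -0.46 (mean -0.58, adjusted p = 0.00852), and Rps14, which is linked to an acquired anaemia, was at -0.60 and -0.51 (mean -0.56, adjusted p = 0.0148). Both arrays of each of these genes lay on the same side of the pool. The lowest mean was that of Rpl3l, a muscle paralog of Rpl3, at -1.18 and -0.34 (mean -0.76), which did not pass (adjusted p = 0.0737) and was read by a dim probe (mean log2 signal 6.95). With the replicate block 13 genes were called, whereas 1 was called without replicate 1 and 3 without replicate 2.

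With TNF alpha 14 of 56 genes were higher and 1 was lower, against 5.25% and 5.72% of all genes, with a median of 0.27. Rpl39 was at 1.15 and 1.27 (mean 1.21, adjusted p = 0.000258). Rps25 was at 0.84 and 0.79 (mean 0.82, adjusted p = 0.0053), Rpl38 at 0.79 and 0.78 (mean 0.78, adjusted p = 0.00108) and Rps26 at 0.74 and 0.79 (mean 0.77, adjusted p = 0.00127). The lower gene was Rpl4 at -0.46 and -0.58 (mean -0.52, adjusted p = 0.00316). The replicates of these genes agreed closely, but the count was 5 without replicate 1 and 2 without replicate 2.

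SB203580 alone, without any stress, also stood above the pool. Of 58 genes 28 were higher and 0 were lower (0 also unadjusted), with a median of 0.41, against 14.7% higher and 11.8% lower of all genes. Rpl39 was at 1.69 and 0.96 (mean 1.32, adjusted p = 0.000101). Rps20 was at 1.32 and 0.64 (mean 0.98, adjusted p = 0.000441), Rps25 at 1.33 and 0.42 (mean 0.88, adjusted p = 0.00163) and Rps29 at 1.22 and 0.53 (mean 0.87, adjusted p = 0.000307). Replicate 1 was the higher array for each. Without replicate 1 only 1 gene was called, and without replicate 2 it was 53, so the number rests on the first array.

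Untreated KO cells had 15 of 65 genes higher and 4 lower than the WT pool, against 8.02% and 6.96% of all genes, with a median of 0.23. Rpl39 was at 1.12 and 0.81 (mean 0.96, adjusted p = 0.00116) and Rpl38 at 0.96 and 0.85 (mean 0.91, adjusted p = 0.000277). Rpl32 was at 1.03 and 0.68 (mean 0.85, adjusted p = 0.00611) and Rps20 at 0.85 and 0.83 (mean 0.84, adjusted p = 0.0018). The lower genes were Rps19 at -0.80 and -0.51 (mean -0.66, adjusted p = 0.00303), Rps14 at -0.95 and -0.30 (mean -0.62, adjusted p = 0.00613), Rpl18 at -0.75 and -0.28 (mean -0.52, adjusted p = 0.0361) and Rpl4 at -0.49 and -0.28 (mean -0.38, adjusted p = 0.0113). Without replicate 1 the count of both directions fell from 19 to 1, and without replicate 2 it was 15.

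These 7 comparisons share the pool and are not independent of each other. Of the 79 genes 76 could be tested in at least 1 of them. Among these, 47 were higher at least once, against 23.3% of all genes, and 4 were lower at least once, against 23.1% (Rpl4 in 3 comparisons, Rps14 and Rps19 in 2, Rpl18 in 1), and 0 went both ways. Rpl39, Rps26 and Rps29 were higher in all 7. A further 28 genes were never called, and for 3 of these (Rpl27a, Rpl3 and Rps9) at least 1 array lacked a usable spot in each of the 7.

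**Figure D3:**
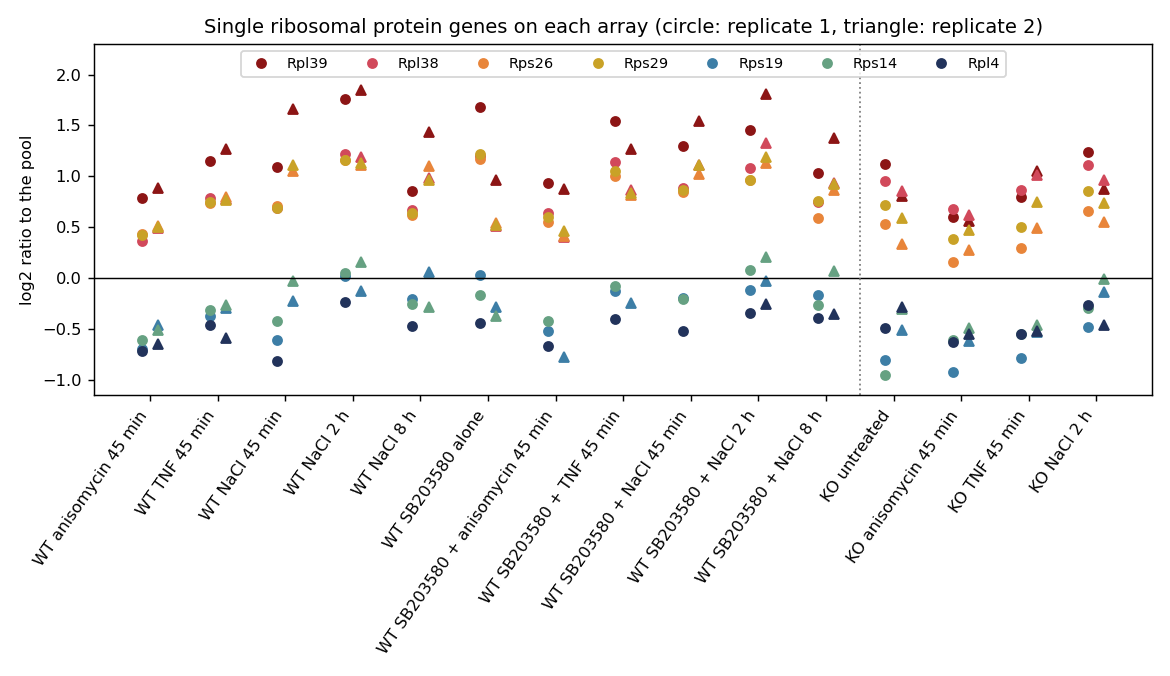
Log2 ratio to the pool of 7 ribosomal protein genes on each array (circles for replicate 1, triangles for replicate 2) by group. Rpl39 ranges from 0.57 to 1.85 and lies above 0 on all 30 arrays, and Rpl4 lies below 0 wherever it was measured.

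The 8 other groups were described by their values. With SB203580 before the stress Rpl39 was highest in all 5 groups, at 0.90 with anisomycin, 1.41 with TNF alpha and 1.42, 1.63 and 1.20 with NaCl for 45 min, 2 h and 8 h. The lowest genes there were Rps19 (-0.65 with anisomycin), Rplp0 (-0.31 with TNF alpha), Rpl13a (-0.29 with NaCl for 45 min) and Rpl4 (-0.30 at 2 h and -0.37 at 8 h). In stressed KO cells Rpl38 was highest with anisomycin (0.65) and TNF alpha (0.94) and Rpl39 with NaCl (1.06). The lowest were Rps3 (-0.88 with anisomycin), Rps19 (-0.66 with TNF alpha) and Rps24 (-0.60 with NaCl).

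No ribosomal protein gene was called when each of the 5 stresses was compared with and without SB203580. limma called 0 of 50 genes with anisomycin, 0 of 52 with TNF alpha and 0 of 53, 0 of 60 and 0 of 63 with NaCl for 45 min, 2 h and 8 h. At an unadjusted p under 0.05 there was 1 gene, with NaCl for 2 h. The background was 0.0204% of all genes with anisomycin, 0 for TNF alpha and for NaCl at 45 min and 2 h, and 0.206% at 8 h, so few genes of any kind were called. Median differences were 0.05, 0.17, 0.09, -0.05 and -0.02. The 95% interval of a single gene's difference reached 0.42 to 0.43 log2 units to either side in the median, so differences within that size could not be resolved. With NaCl for 2 h the median difference was -0.16 within the first scan and 0.09 within the second, and for the other stresses the 2 scans gave 0.10 and -0.02, 0.26 and 0.09, 0.22 and -0.01, and 0.03 and -0.07 in the order above.

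The same stress was then compared between KO and WT cells. limma called 0 of 56 genes with anisomycin (1 unadjusted), 0 of 56 with TNF alpha (1 unadjusted) and 0 of 62 with NaCl for 2 h (15 unadjusted, all lower in KO cells), against 1.27%, 0.414% and 0.697% of all genes. The median differences of KO minus WT were 0.01, -0.10 and -0.22. With NaCl 56 of 62 genes were lower in KO cells. The shares of all genes at an unadjusted p and below 0 are not given beside these counts. The counts are therefore not shown to be particular to ribosomal protein genes. Scan date split the genotypes, with 1 scan holding both. There the first KO arrays minus the second WT arrays gave medians of -0.12, -0.22 and -0.21, against 0.02, 0.01 and 0.03 over all genes. A WT and a KO line were compared, so genotype and line cannot be told apart.

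The gene closest to a call was Rps27, a zinc-binding protein of the small subunit. With NaCl for 2 h it was at 1.05 and 1.06 in WT cells and at 0.04 and 0.25 in KO cells, without overlap (difference -0.91 ± 0.21 (SE), limma adjusted p = 0.0578). It passed with the replicate block (adjusted p = 0.0200), with a term for the scan (-0.93, adjusted p = 0.0213) and when either array of SB203580 alone, which adds to the common spread, was left out. It did not pass with normexp and loess (adjusted p = 0.0829), with the series matrix (0.0562) or without any 1 of the 4 arrays compared (0.132 to 0.243). Within the scan that held both genotypes the difference was -1.02. The same direction was seen with anisomycin (0.08 and 0.19 in WT, -0.51 and -0.19 in KO cells) and with TNF alpha (0.45 and 0.47, -0.28 and 0.14), where the adjusted p values were 0.350 and 0.508. In untreated KO cells it was at -0.24 and -0.02 relative to the WT pool. Its paralog Rps27l, a p53-induced gene, had WT values of 0.42 and 0.30 and KO values of 0.59 and -0.05 with NaCl for 2 h, which overlapped.

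Responses within the KO cells were measured against their own untreated arrays. limma called 0 of 62 genes with anisomycin (0 unadjusted), 0 of 62 with TNF alpha (0 unadjusted) and 0 of 65 with NaCl for 2 h (3 unadjusted), against 0.0847%, 0.0780% and 1.08% of all genes. Median differences were -0.24, -0.05 and 0.11. With anisomycin 59 of 62 genes lay below the untreated KO cells, and the share of all genes below 0 is not given. The medians of the ribosomal protein genes were -0.38 on the arrays of 1 scan and -0.13 on those of the other, against -0.02 and 0.03 over all genes. With NaCl the medians of the ribosomal protein genes were 0.08 and 0.14. With TNF alpha the first scan gave -0.23, and replicate 2 was scanned alone. The widest differences were Rpl35 with anisomycin (-0.48), Rpl7l1 with TNF alpha (-0.25) and Rps24 with NaCl (-0.80 ± 0.19, adjusted p = 0.0557). Rps24 passed with the replicate block (adjusted p = 0.0110) and with the scan term (adjusted p = 0.00978), and also without replicate 1 of the KO NaCl group (-1.03) or replicate 2 of the untreated KO group (-1.05). It also passed, at an unchanged difference, without either array of KO anisomycin or of SB203580 alone.

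Stress after SB203580 was likewise compared with SB203580 alone. No gene was called among 50 with anisomycin (limma; 3 unadjusted), 55 with TNF alpha (1 unadjusted) and 51 with NaCl for 45 min (1 unadjusted), against 0.0140%, 0.0983% and 0.0435% of all genes. With anisomycin 49 of 50 genes lay below SB203580 alone, with a median of -0.33, and the share of all genes below 0 is not given. At 2 h of NaCl Rps24 was the 1 gene called of 56 (2.87% of all genes), from 0.74 and 0.24 to -0.22 and -0.27 (difference -0.73 ± 0.19, adjusted p = 0.0486). At 8 h Rps20 was the 1 gene called of 54 (7.78% of all genes), from 1.32 and 0.64 to 0.20 and -0.57 (difference -1.17 ± 0.22, adjusted p = 0.00294). Neither pair of groups overlapped, but both genes were picked by the test on these same arrays. Rps24 remained called without replicate 2 of SB203580 alone (-0.98) but not without any of the other 3 arrays, and it was lost in some cases where an array of another group was left out. Rps20 remained called without that array (-1.51) or replicate 1 of the 8 h group (-1.55), but not without replicate 1 of SB203580 alone or replicate 2 of the 8 h group. Without replicate 2 of SB203580 alone Rpl22, Rpl24, Rpl36a and Rplp2 were also called at 8 h, between -0.82 and -0.58.

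These medians turned on the SB203580 arrays. With anisomycin the median difference was -0.61 within the first scan and -0.07 within the second, against 0 and -0.01 over all genes. With NaCl for 2 h it was -0.25 and 0.61, for 8 h -0.50 and 0.44, for 45 min -0.32 and 0.40, and with TNF alpha -0.16 and 0.29. The signs of these 4 therefore opposed each other between scans, and no direction of the set as a whole can be read from them. Anisomycin was the 1 stress of 5 for which both scans had the same sign.

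**Figure D4:**
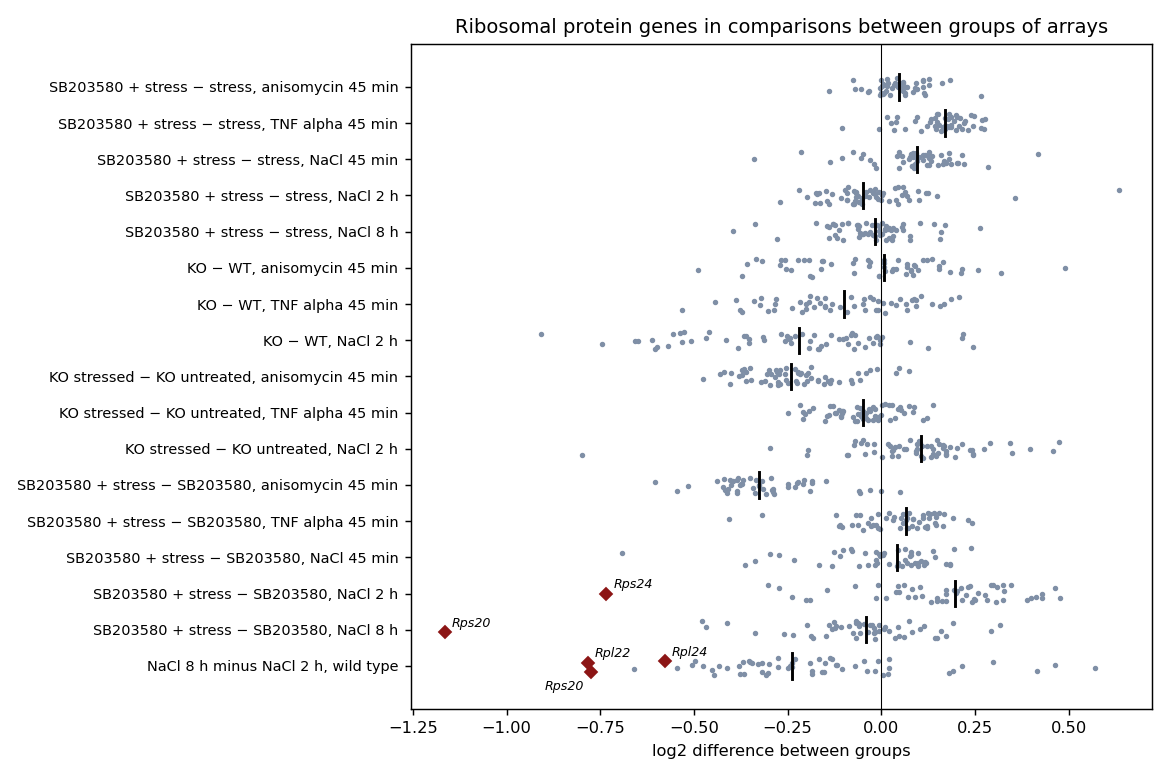
Log2 difference of each ribosomal protein gene in 17 comparisons between groups (points), with the median as a bar and called genes as labelled diamonds. Of all these comparisons only 3 have called genes (Rps24, Rps20, and Rpl22, Rps20 and Rpl24), and the points of both anisomycin comparisons with an unstressed group lie mostly left of 0 (59 of 62 and 49 of 50).

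The difference of responses, stressed minus untreated KO cells minus the WT ratio to the pool, gave no call, but this depended on the processing. limma called 0 of 54 genes with anisomycin (12 unadjusted), 0 of 53 with TNF alpha (13 unadjusted) and 0 of 57 with NaCl for 2 h (29 unadjusted), against 0.542%, 0.450% and 0 of all genes. Summed over the 3 stresses, there were 15 calls with outlier spots kept, 19 with normexp and loess and 40 with the series matrix. The share of all genes called in these other settings is not given. Nor is the share of all genes at an unadjusted p given. Median differences were -0.26, -0.36 and -0.54. The dye difference cancels on the KO side but not on the WT side, so it cannot be told apart from a smaller response here. Rpl39 had the widest differences, -1.22, -1.25 and -1.71 (adjusted p = 0.0697, 0.0661 and 0.0588). It passed in all 3 with the replicate block (adjusted p = 0.0329, 0.0395 and 0.0260), as did Rpl38 with NaCl (-1.07, adjusted p = 0.0451). Without replicate 2 of the untreated KO group Rpl39 passed with NaCl (-1.86) and Rps14 with anisomycin (0.95), and without replicate 1 of the KO NaCl group Rpl39 passed with NaCl (-1.89). Without either array of SB203580 alone Rpl39 passed in all 3 and Rpl38 with NaCl, and without either array of KO anisomycin Rpl39 passed with NaCl.

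Probes of the same gene did not always move together. Of the 38 genes with more than 1 probe, 7 had probes whose group means differed by more than 1 log2 unit, and in 6 of them a probe with a mean log2 signal near or under 10 differed from a brighter one. Testing single probes was chosen after seeing the data. Rps24, a protein of the small subunit in which mutations also cause Diamond-Blackfan anaemia, had the widest gap, of 3.14 log2 units after SB203580 and 2 h of NaCl. Its bright probe on RefSeq transcript NM_207634 (mean log2 signal 16.80) was at 0.62 and 0.81 after 45 min of NaCl, 1.16 and 1.12 after 2 h and 0.43 and 0.91 after 8 h. The dim probe on the clone AK052480 (9.55) was at -2.12 and -1.94, then -2.09 and -1.16, then 0.75 and 0.54. The clone probe thus lay below the pool at 45 min and 2 h and above it at 8 h, while the bright probe lay above it throughout.

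The same drop of the clone probe was seen in every group given NaCl for 45 min or 2 h. After SB203580 it was at -2.02 and -1.93 at 45 min, -2.01 and -2.24 at 2 h and 0.39 and 0.37 at 8 h, and in KO cells at -1.71 and -2.35 at 2 h. With anisomycin or TNF alpha alone its mean was 0.06 and 0.17. Against SB203580 alone its difference was -2.53 at 45 min (limma over probes, adjusted p = 0.00161) and -2.69 at 2 h (adjusted p = 8.55e-05). In KO cells it was -2.48 against untreated cells (adjusted p = 0.000256), and from 2 h to 8 h in WT cells it was 2.27 (adjusted p = 0.000165). The bright probe had 0.30 (adjusted p = 0.551), 0.11 (adjusted p = 0.918) and -0.47 (adjusted p = 0.228) in the last 3 of these comparisons. The Rps24 calls above therefore came from the clone probe and not from the RefSeq probe, and whether that clone is a transcript of Rps24 was not tested.

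**Figure D5:**
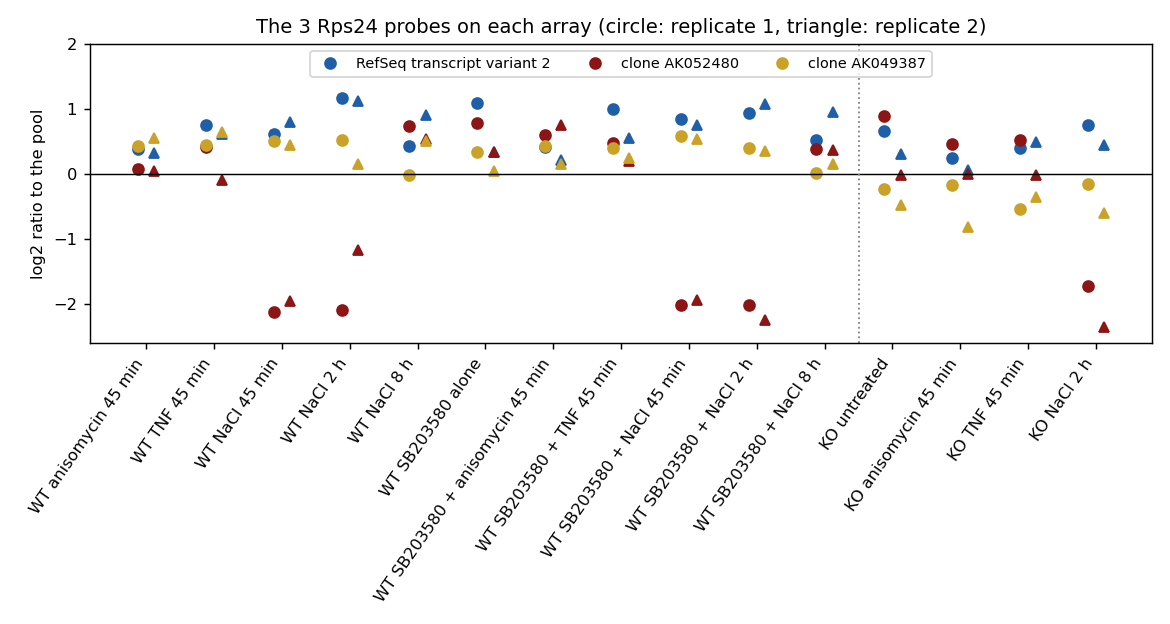
Log2 ratio to the pool of the 3 Rps24 probes on each array (circles for replicate 1, triangles for replicate 2) by group. The clone AK052480 lies between -2.35 and -1.16 in the 5 groups given NaCl for 45 min or 2 h and between -0.09 and 0.90 in the others, while the RefSeq probe stays above 0 on all 30 arrays.

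The remaining Rps24 probe, on the clone AK049387 (mean log2 signal 9.29), separated the genotypes. It was at 0.43 and 0.55 in WT and at -0.16 and -0.81 in KO cells with anisomycin (difference -0.97, adjusted p = 0.0246). With TNF alpha it was at 0.45 and 0.65 in WT and at -0.53 and -0.35 in KO cells (difference -0.99, adjusted p = 0.0381). With NaCl for 2 h the difference was -0.72 (adjusted p = 0.132). WT and KO arrays did not overlap with anisomycin or TNF alpha.

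The late falls of Rps20 and Rpl22 also rested on the dimmer probe, that of Rpl24 did not. For Rps20 the clone AK014594 (mean log2 signal 10.04) was at -0.31 and -0.53 after 8 h of NaCl and at 0.82 and 0.50 after 2 h (difference -1.08, adjusted p = 0.00835). The RefSeq probe NM_026147 (17.09) was at 0.31 and 0.89 after 8 h and at 1.06 and 1.09 after 2 h (difference -0.47, adjusted p = 0.223). Against SB203580 alone the clone differed by -1.60 at 8 h (adjusted p = 0.000421). The RefSeq probe had no usable spot on replicate 2 of that group, so the gene's value there (-0.57) was the clone's alone, and it had none in untreated KO cells. Both probes of Rpl22 lie on NM_009079: the dimmer one (11.89) was at -1.13 and -0.52 after 8 h (difference from 2 h -1.28, adjusted p = 0.00461) and the brighter one (14.46) at 0.19 and 0.43 (difference -0.29, adjusted p = 0.312). The 2 probes of Rpl24 were alike, at -0.02 and 0.02 in the mean after 8 h (differences -0.57 and -0.59, adjusted p = 0.0433 and 0.0442).

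The remaining genes with probes over 1 log2 unit apart were Rpl13, Rpl37, Rps2 and Rps7. After 2 h of NaCl the bright and the dim probe of Rps7 had means of 0.98 and -0.14, and those of Rpl37 0.90 and -0.14. For Rps2 a bright probe was at 0.76 and the dim one at -0.50, and for Rpl13 the brightest was at 0.95 and the dimmest at -0.27. In each the brighter probe had the higher ratio, so the mean over probes lay below that of the bright probe.

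By role, the stalk proteins, which recruit the GTPase factors of translation, were mixed. Rplp2 was higher with NaCl for 2 h (0.53) and 8 h (0.41) and with SB203580 alone (0.77). With SB203580 alone its bright probe (mean log2 signal 16.95) had no usable spot on replicate 2. The dim probe (9.32) had a mean of 0.96 in this group, so that value leans on it. Rplp1 was measured on both arrays in 1 of the 7 comparisons and was higher there, at 0.33 and 0.83 after 8 h (adjusted p = 0.0380). Rplp0, read by a probe on a partial mRNA, was at -0.15 and -0.26 after 2 h of NaCl (adjusted p = 0.200).

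Rpl5, Rpl11, Rpl23 and Rpl26 are large subunit proteins that also bind the p53 regulator Mdm2. Rpl26 was higher in all 4 comparisons that measured it, by 0.91 and 0.75 with NaCl for 2 h and 8 h, 0.68 with SB203580 alone and 0.77 in untreated KO cells. Rpl23 was higher with NaCl for 2 h (0.61) and in untreated KO cells (0.62). Rpl11 was higher in 1 comparison, NaCl for 8 h (0.45), where its 2 probes differed by 0.65. The bright RefSeq probe (mean log2 signal 14.02) was at 0.13 there and a dim clone probe (7.44) at 0.78, so the call leans on the dim probe. Rpl5 was measured in untreated KO cells alone, at 0.51 and 0.07, and did not pass.

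Rpl10, which joins the large subunit late, was higher with NaCl for 2 h (0.70) and 8 h (0.45). Rpl13a was measured in 3 comparisons and passed in 0, with values from -0.25 to 0.14. Rpl3, which lies next to the peptidyl transferase centre, had usable spots on 3 arrays only. Rps6, the target of S6 kinases, had means from -0.20 to 0.21 and passed in 0 of 7. Most of these rest on a clone probe with a mean log2 signal of 6.88, since the RefSeq probe (15.89) had usable spots on both arrays in 3 groups, among them NaCl for 2 h (0.41) and untreated KO cells (0.36). Rps3, at the mRNA entry, passed in 0 of 2, and Rps27a, made as a fusion with ubiquitin, in 0 of 1. No direction can be given for these genes.

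Paralogs were set beside their partners. Rpl36a was higher with NaCl for 2 h (0.73) and SB203580 alone (0.56), while Rpl36al had 0.20 and 0.31 and passed in 0 of 7. Rpl7 was higher with NaCl for 2 h (0.57), where Rpl7l1, an assembly protein, had -0.04 and passed in 0 of 7. Rps27 was higher in 4 comparisons and Rps27l in 2, with SB203580 alone (0.62) and in untreated KO cells (0.57). The differences between partners were not tested.

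Subunit genes under other symbols were described for NaCl at 2 h. Fau was at 0.62 and 0.67 (mean 0.65, adjusted p = 0.0283), and Arbp, the older name of the stalk protein P0, had a mean of 0.90 (adjusted p = 0.0322), so both were higher than the pool. Lamr1, the older name of Rpsa, was at 0.19 and 0.11 and did not pass. The Arbp and Rplp0 names thus stood on opposite sides of the pool, at 0.58 and 1.21 for Arbp.

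Genes that build ribosomes were described beside them. Of 82 symbols of rRNA transcription, processing and assembly 37 were on the array. Myc, a transcription factor that acts on many other genes, was on this list and is counted below as an assembly gene. It was among the genes called higher with NaCl for 2 h (2.20 and 1.74, mean 1.97), anisomycin (2.71 and 0.76, mean 1.73) and TNF alpha (3.33 and 1.06, mean 2.19). Its replicates thus lay far apart with anisomycin and TNF alpha. With NaCl for 2 h 4 of 32 were higher and 0 lower, with a median of 0.07, against 5.24% and 4.69% of all genes. With NaCl for 8 h 10 of 27 were higher and 3 lower, with a median of 0.46, against 11.0% and 11.2%. From 2 h to 8 h 5 of 25 rose, Nol1 by 1.24, Rrs1 by 1.21, Gnl3 by 1.16, Ppan by 1.13 and Ncl by 0.69 (adjusted p from 0.00583 to 0.0392), and Pes1 fell by 0.82 (adjusted p = 0.00622), against 7.81% of all genes in either direction. In the means of both arrays the ribosomal protein genes had their highest median at 2 h (0.56) and the assembly genes at 8 h (0.46). For the ribosomal protein genes this order came from the first arrays. From 2 h to 8 h their median difference was -0.49 there and -0.03 on the second arrays. On replicate 2 alone their median was 0.48 at 2 h and 0.57 at 8 h. Against the pool at 45 min, 5 of 24 assembly genes were higher and 1 lower with anisomycin (5.72% and 6.28% of all genes), 4 of 25 and 0 with TNF alpha (5.25% and 5.72%), and 2 of 24 and 1 with NaCl (4.69% and 5.19%). With SB203580 alone 4 of 25 were higher and 2 lower (14.7% and 11.8%), and in untreated KO cells 3 of 26 and 0 (8.02% and 6.96%). Nol5 and Nola3 were among the higher genes in all 7 comparisons with the pool. They were at 0.77 and 1.05 with SB203580 alone and at 0.96 and 0.60 in untreated KO cells. These 2 thus stood above the pool with or without a stress, and with NaCl for 45 min they were the only higher ones. At 8 h of NaCl after SB203580 1 of 21 assembly genes was higher and 1 lower than with SB203580 alone (7.78% in either direction). All other comparisons gave 0 calls among them.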

How the data were processed

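Total RNA was amplified in 2 rounds with random and T7 primers, labelled and hybridized to Agilent 44K arrays. The authors extracted spots with Agilent Feature Extraction (9.1 per the labels, 8.1.1.1 per the file headers), and the deposited log10 ratios of Cy5 to Cy3 were background- and dye-normalized by that software. The deposited files also held raw and processed intensity values for both dyes, and a series matrix with the authors' values on a log2 scale, judged from the values, used as an alternative.

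Here control spots and outlier-marked spots were left out, ratios were turned to log2, and spots, then probes, then genes were averaged. A linear model with 1 mean per group (15 groups, 30 arrays) was fitted in limma 3.58.1 (R 4.3.3) with moderated variances. Adjusted p-values are Benjamini-Hochberg values over all genes with data on every array of the groups compared. A call is an adjusted p under 0.05. Counts at an unadjusted p, and counts of genes on 1 side of 0, stand without the share of all genes and only describe the set. A comparison with the pool tested a mean against 0 and leaves out the spread of the pool, since 1 pool served all arrays. The 2 arrays of a group were biological replicates per the methods, and their number limits the precision. Python 3.11.15 was used for descriptions. The fits were tested on simulated data.

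The replicate numbers paired the samples: the deviations of same-numbered arrays correlated above 0.1 in 55 of 55 pairs of WT groups (0.133 to 0.645) and 6 of 6 pairs of KO groups (0.151 to 0.447). Scan dates followed them. Alternatives were a replicate block, a scan term (without 1 array scanned alone), outlier spots kept, saturated spots left out, spots well above background, normexp (offset 50) with loess, median centring, the series matrix, RefSeq NM probes, the brightest probe, a 2-fold mean and each array left out, after which the lone array of a group takes its spread from the rest. Named are called genes (the 4 highest and 4 lowest where over 8 passed), the ends of each group, genes of known role, paralogs and genes with disagreeing probes; Rps24, Rps27, Rpl39 and Rpl28 are also named where an alternative called them. The genes and lists were chosen with earlier results of these data known. Start windows came from RefSeq tables. Proteins and probe sequences were not used here.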

Additional observations from a re-analysis of the deposited data

How the results depend on the processing

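Counts of called ribosomal protein genes depended on the handling of spots. With outlier spots kept they were 21 with anisomycin, 29 with TNF alpha, 26 with NaCl for 45 min, 44 with SB203580 alone and 15 for the difference of responses. With normexp and loess they were 14, 26, 23, 45 and 19 in the same order, and 30 in untreated KO cells. With the series matrix they were 26, 39, 39, 56 and 40, with 43 for NaCl for 8 h and 40 for untreated KO cells. The number of genes tested and the share of all genes called in each setting are not given beside these counts. A rise is therefore not shown to be particular to ribosomal protein genes. By a 2-fold mean they were 0 with anisomycin, 1 with TNF alpha, NaCl for 45 min, NaCl for 8 h and SB203580 alone, 11 with NaCl for 2 h, 0 in untreated KO cells, 1 for stress after SB203580, 0 for NaCl 8 h against 2 h and 8 for the difference of responses. The replicate block gave 13 with anisomycin, 5 for 8 h against 2 h and 4 for the difference of responses, and the scan term 5 and 2 for the last pair. KO against WT gave 1 (Rps27) with outlier spots kept, spots well above background, NM probes, the brightest probe, the block and the scan term, and stressed against untreated KO cells gave 1 with outlier spots kept, spots well above background, the series matrix, the block and the scan term. Stress after SB203580 gave 1 with normexp, 0 with NM probes, 1 with the brightest probe and 4 with the series matrix. For 8 h against 2 h normexp and the brightest probe gave 1. The difference of responses gave 1 with spots well above background and with NM probes and 2 with the brightest probe. The cause was not tested. Leaving out 1 array of the groups compared gave 1 to 3 with anisomycin, 2 to 5 with TNF alpha, 5 to 7, 14 to 24 and 6 to 29 with NaCl for 45 min, 2 h and 8 h, 1 to 53 with SB203580 alone, 1 to 15 in untreated KO cells, 0 for the SB203580 effect and for KO against WT, 0 to 1 for KO stress, 0 to 6 for stress after SB203580, and 0 to 2 for 8 h against 2 h and for the difference of responses. Rps24 after SB203580 and 2 h of NaCl reversed from -0.73 to 0.30 with NM probes or the brightest probe, and to 0.30 and 0.19 for single probes, tested after seeing the data. The other named calls kept their direction in all of these settings, in 400 cases on the same side of the threshold and in 10 not. With an array left out 49 stayed on that side and 45 did not. The replicate block moved no other count by over 1.5 times. The mean over groups of the medians of these genes was 0.297 in the main setting. Single groups moved beyond the spread of their replicates in some settings. With normexp and loess the median went from 0.05 to 0.21 with anisomycin (standard deviation of the replicates 0.03). It went from 0.26 to 0.37 with TNF alpha (0.01), whereas with NaCl for 8 h it went from 0.37 to 0.39 (0.27). Depth here is signal over background, and 13 of the 130 probes were dim (mean log2 signal under 10).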
